A study of Mus musculus with 8 samples.

Results

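Integrins are adhesion receptors built from an alpha and a beta chain, and the chains that a T cell makes set which tissues it can enter and which cells it can hold on to. In the gut, the chains encoded by Itga4 and Itgb7 form the receptor for the vascular addressin MAdCAM-1, which brings T cells into the mucosa. Itgae encodes CD103, the alpha E chain, which pairs with the chain of Itgb7. The pair binds E-cadherin on the epithelium and is carried by many mucosal regulatory T (Treg) cells. The transcripts of 10 integrin chains were followed here in Treg cells of the mouse large intestine. They were found by gene symbol in a table of 19191 gene rows, each symbol matched a single row, and all 10 passed the filter on low counts. They were chosen by name and function, with earlier results of these data known.

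The cells were Treg cells, the suppressive CD4 T cells that depend on the transcription factor Foxp3, isolated by flow sorting of large-intestinal lamina propria cells of C57BL/6 mice. In the KO group (2 libraries, genotype Ahrf/- Foxp3Yfp-Cre) Cre made from the Foxp3 locus deletes a floxed allele of Ahr, the aryl hydrocarbon receptor, and the other allele is null. In the WT group (2 libraries, genotype Ahrf/+ Foxp3Yfp-Cre) the same Cre and floxed allele are present and the other allele is intact, so WT Treg cells kept a single working copy and were not unmodified wild-type cells. KO animals carry the null allele in every tissue, so an effect inside Treg cells and an effect of the surrounding tissue cannot be told apart. Neither age nor whether a library came from 1 animal or a pool is given in the sources used here. The p-values therefore measure the spread between these libraries, which may be technical.

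The libraries held 30993483 and 53438828 gene counts in KO and 26862922 and 62402450 in WT. Replicate 2 had the greater depth in each genotype, and Lars2 took more of its counts (0.724% in KO and 1.66% in WT) than of replicate 1 (0.0633% in KO and 0.0367% in WT), so ratios of KO over WT within each replicate number are given beside the fitted values. The Ahr count over the whole gene (536 and 518 CPM in KO, 581 and 539 CPM in WT) does not show which exons were read, so it is no check of the deletion or of the labels. The defining Treg transcripts were abundant, with Foxp3 at 248 and 256 CPM in KO and 279 and 257 CPM in WT. The 12 Treg identity genes summed to 10464 and 9840 CPM in KO and 9588 and 9416 CPM in WT, higher in KO without overlap. Both KO libraries lay above both WT libraries for 5 of the 12 and below for 0, beside 13.5% and 13.4% of all tested genes. Ctla4, the highest of the 12, stood at 3735 and 3581 CPM in KO and 3195 and 3107 CPM in WT. The part of this difference in the chain values was not tested. Levels are in CPM, the reads of a gene per 1000000 reads of its library, which correct for depth but not for transcript length. Lengths of exons were not used here, so levels are compared between libraries and not between chains.

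Promoter windows are shown for Itga4 and for Itgb7 and Itgb1, the beta chains that its product pairs with, to let a reader look for the motif of the deleted factor at their annotated starts. Of the 10 chains, 5 had an entry in the RefSeq promoter table (build GRCm38.p6, 250 bases before to 50 after the annotated start, given on the strand of the gene). Itgae, Itgal, Itgb2, Itga6 and Itgb3 had none. The core of the binding motif of Ahr with its partner Arnt, GCGTG, was searched on both strands (CACGC on the other) with overlaps allowed, and matches are in capitals. The Itga4 window lies at chr2:79255176-79255475 on the plus strand, the Itgb7 window at chr15:102231886-102232185 on the minus strand and the Itgb1 window at chr8:128685404-128685703 on the plus strand.
Itga4: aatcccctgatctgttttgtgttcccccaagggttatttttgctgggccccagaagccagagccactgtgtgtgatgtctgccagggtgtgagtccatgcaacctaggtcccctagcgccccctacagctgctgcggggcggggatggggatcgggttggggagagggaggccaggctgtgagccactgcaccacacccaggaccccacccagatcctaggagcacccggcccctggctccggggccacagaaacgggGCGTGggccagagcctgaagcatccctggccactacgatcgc
Itgb7: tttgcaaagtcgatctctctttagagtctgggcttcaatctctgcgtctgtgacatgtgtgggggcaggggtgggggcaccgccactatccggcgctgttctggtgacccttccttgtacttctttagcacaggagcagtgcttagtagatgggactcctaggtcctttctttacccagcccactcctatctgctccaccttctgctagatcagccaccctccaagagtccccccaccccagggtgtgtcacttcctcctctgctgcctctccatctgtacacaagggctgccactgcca
Itgb1: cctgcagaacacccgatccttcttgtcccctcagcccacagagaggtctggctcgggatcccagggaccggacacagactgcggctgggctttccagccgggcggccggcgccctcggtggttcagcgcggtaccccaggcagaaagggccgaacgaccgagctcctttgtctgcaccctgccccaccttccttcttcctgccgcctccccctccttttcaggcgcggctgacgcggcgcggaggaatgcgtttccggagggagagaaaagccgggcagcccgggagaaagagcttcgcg
The motif occurred in 1 of the 5 windows, that of Itga4, at an offset of 8 bases downstream of the annotated start. Of 32851 windows of 300 bases in the table, 10639 (32.4%) held it. Such a match is a description of letters and not a bound site, and the other windows show only that these letters are not in them.

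Across the 10 chains, the alpha E chain Itgae (CD103) was lower in KO and the beta 1 chain Itgb1 was higher. The other 8 differed by at most 0.22 on the log2 scale. By the sign of the fit 7 chains were higher, as were 52.0% of all tested genes. In the fit of all 14274 tested genes by edgeR's quasi-likelihood test, 0 of the 10 passed a Benjamini-Hochberg adjusted p of 0.05 in either direction, as did 0.00% of all tested genes. At an unadjusted p under 0.05, 2 chains were higher (Itgb1 and Itgb3) and 1 was lower (Itgae), against 1.64% of tested genes higher and 1.21% lower. By DESeq2, 1 chain was lower (Itgae) and 0 were higher at an adjusted p under 0.05, against 0.100% and 0.167% of the 17996 genes with an adjusted p. Both KO libraries lay above both WT libraries for 5 chains, against 13.5% of tested genes, and below them for 2, against 13.4%. The median log2 fold change of the 10 chains was 0.12, with 0.14 within replicate 1 and 0.14 within replicate 2, against 0.0074 over all tested genes. Together the 10 chains took 0.374% and 0.389% of all counts in KO and 0.357% and 0.370% in WT.

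**Figure D1:**
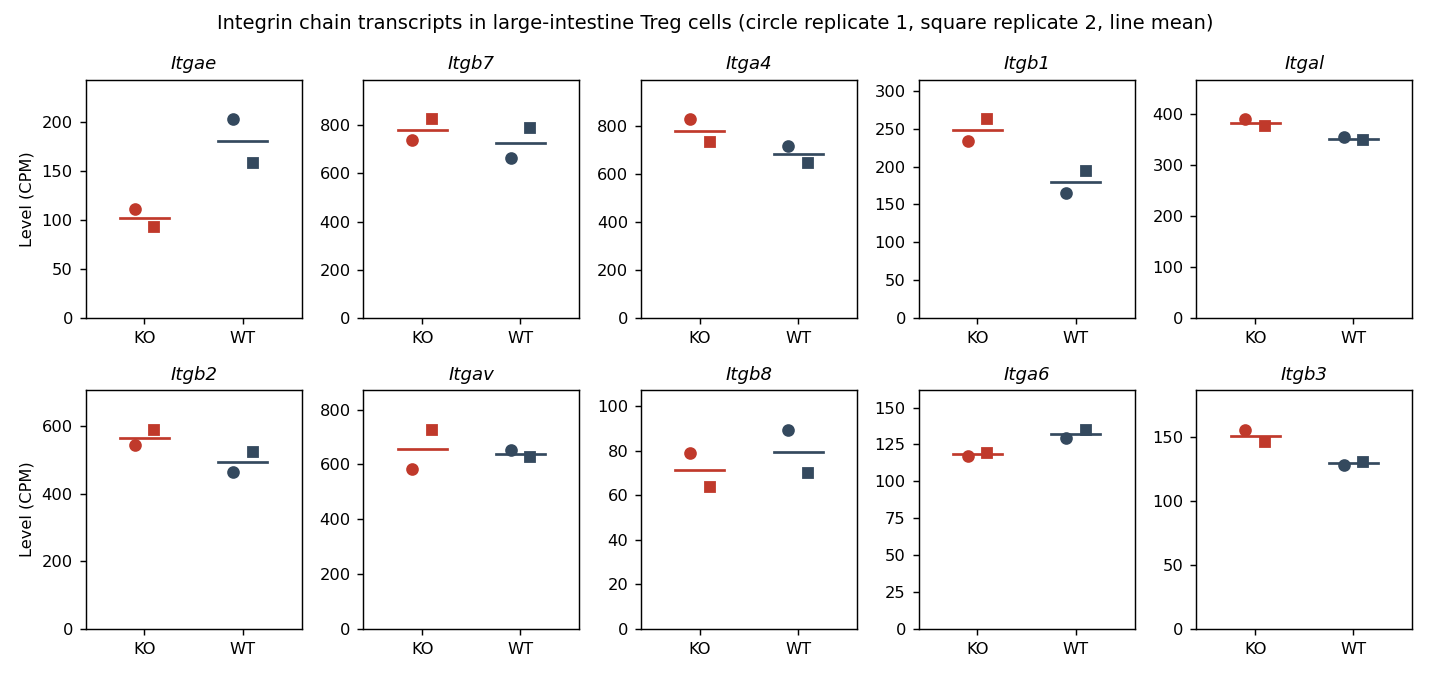
Level of each integrin chain in CPM (vertical axis, from 0, scaled per panel) in KO and WT libraries, with a circle for replicate 1, a square for replicate 2 and a line at the mean of n = 2. Itgae (102 ± 13.0 CPM in KO, 180 ± 31.1 CPM in WT) and Itgb1 (248 ± 19.9 CPM in KO, 180 ± 21.2 CPM in WT, SD) show the widest gaps between the genotypes.

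Itgae encodes the alpha E chain CD103 (chromosome 11, 72904085 to 72960948, plus strand, mm9). It had 3421 and 4925 reads in the KO libraries, against 5427 and 10070 reads in the WT libraries. Scaled for depth, this was 111 and 93.2 CPM in KO and 202 and 158 CPM in WT. Both KO libraries lay below both WT libraries, and the gap between the genotypes was wider than the gap within either. Replicate 2 was the lower library in both genotypes, by 0.26 on the log2 scale in KO and by 0.35 in WT. The fitted KO level was 0.568 times the WT level, a log2 fold change of -0.82 ± 0.16 (SE, 95% interval -1.21 to -0.42), with ratios of -0.86 (replicate 1) and -0.76 (replicate 2). Its unadjusted p of 0.00260 ranked 42 among the 14274 genes tested by edgeR, and the adjusted p was 0.882. DESeq2 gave an adjusted p of 0.00120, and the authors' deposited table gives 7.77e-06, where 66 genes (0.344% of all rows) lie under 0.05. Without KO replicate 2 or WT replicate 1 the DESeq2 adjusted p was 0.999 and 0.460, and without KO replicate 1 or WT replicate 2 it was 0.00570 and 7.93e-04. Over 18 alternatives to the edgeR fit the adjusted p ran from 3.13e-17 to 1.00, while the log2 fold change stayed between -0.99 and -0.63. In bulk RNA, fewer CD103-positive cells and less Itgae RNA per cell cannot be told apart.

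Reads near Itgae were looked at because overlapping genes could share them. Gsg2, the gene of the mitotic kinase haspin, lies within the Itgae span on the opposite strand (chromosome 11, 72948987 to 72951796, 2810 bases, mm9), and whether the counting used strand is not given in the sources used here. It had 485 and 1004 reads in KO and 566 and 1230 reads in WT, so it was counted with far fewer reads than Itgae, and its log2 fold change was -0.21 ± 0.13. The nearest genes outside the span were 1200014J11Rik, 10365 bases to the left, with a log2 fold change of -0.049 ± 0.11, and the purinergic receptor gene P2rx5, 12974 bases to the right, with -0.49 ± 0.46. P2rx5 held 33 and 33 reads in KO and 35 and 68 in WT.

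Other cells with CD103 were checked by marker lists. CD8 T cells and a subset of dendritic cells carry CD103. Cd8a stood at 1.48 and 1.31 CPM in KO and 0.968 and 1.14 CPM in WT, and Cd8b1 at 4.74 and 6.10 CPM in KO and 4.54 and 4.97 CPM in WT. The 8 CD8 and cytotoxic markers summed to 882 and 1158 CPM in KO and 984 and 1089 CPM in WT, nearly all of it Gzmb, which activated Treg cells also make. Gzma, the gene of another cytotoxic granule protease, stood at 1.71 and 2.21 CPM in KO and 7.97 and 4.15 CPM in WT, without overlap and lower in KO as Itgae was. Its adjusted p was 1.00 by edgeR, 0.0309 by edgeR with no filter on low counts and 0.105 by DESeq2, and its part in the Itgae value was not tested. The 8 dendritic cell markers summed to 46.6 and 45.2 CPM in KO and 46.1 and 37.4 CPM in WT, with Clec9a at 0.323 and 0.150 CPM in KO and 0.112 and 0.160 CPM in WT. Xcr1, another marker of this list, stood at 9.81 and 7.09 CPM in KO and 9.01 and 6.79 CPM in WT. Its levels overlap and were higher in KO within each replicate number. Most of the sum was Zbtb46, at 30.0 and 35.6 CPM in KO and 27.3 and 27.4 CPM in WT, without overlap. Itgax went the other way within each replicate number, at 5.45 and 1.67 CPM in KO and 8.56 and 2.44 CPM in WT. Their part in the Itgae value was not tested. The summed levels of both lists overlapped between the genotypes. The 10 macrophage markers summed to 106 and 48.3 CPM in KO and 143 and 67.8 CPM in WT, and so were lower in KO within each replicate number. The part of the macrophage markers in the values of any chain was not tested. No listed marker was at 0 in all 4 libraries.

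Itgb7 encodes the beta chain that pairs with the products of both Itgae and Itga4 (chromosome 15, 102046426 to 102062366, minus strand). It stood at 738 and 823 CPM in KO and 662 and 788 CPM in WT. The genotypes overlapped, and replicate 2 was the higher library in each. Its fitted log2 fold change stood at 0.11 ± 0.12 (95% interval -0.20 to 0.41), with ratios of 0.16 (replicate 1) and 0.063 (replicate 2), so the interval excludes a decrease of the size seen for Itgae. The ratio of Itgae reads to Itgb7 reads, in which depth and scaling cancel, was 0.151 and 0.113 in KO and 0.305 and 0.201 in WT. The KO ratios lay below both WT ratios, by 0.92 on the log2 scale on average. That difference was -1.02 within replicate 1 and -0.83 within replicate 2.

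Itga4 encodes the alpha 4 chain, which with Itgb7 binds MAdCAM-1 and with Itgb1 binds VCAM-1 on inflamed endothelium (chromosome 2, 79095583 to 79173280, plus strand). It stood at 829 and 737 CPM in KO and 718 and 649 CPM in WT. Both KO libraries were higher than both WT libraries, by a margin smaller than the gap between replicates. The fit put the log2 fold change at 0.20 ± 0.11 (95% interval -0.074 to 0.47), with ratios of 0.21 (replicate 1) and 0.18 (replicate 2). Its last 2581 annotated bases overlap the opposite-strand gene Cerkl, which held 533 and 612 reads in KO and 414 and 752 in WT, few beside the 25426 and 38940 reads of Itga4 in KO and 19275 and 41302 in WT.

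Itgb1 encodes the beta 1 chain, the common partner of alpha chains that bind fibronectin, collagen, laminin and VCAM-1 (chromosome 8, 131209554 to 131257100, plus strand). Its level was 234 and 262 CPM in KO, against 165 and 195 CPM in WT. Both KO libraries lay above both WT libraries, and the gap exceeded that between replicates in each genotype. The fitted level in KO was 1.38 times that in WT, a log2 fold change of 0.46 ± 0.12 (95% interval 0.17 to 0.76), with ratios of 0.50 (replicate 1) and 0.43 (replicate 2). Its unadjusted p by edgeR was 0.00955, rank 93 of the tested genes, and the adjusted p was 1.00. DESeq2 gave 0.273 and the authors' deposited table gives 0.793, and the adjusted p ran from 2.77e-06 to 1.00 over the 18 alternatives, where it passed in the 2 fits with the replicate number as a block and in no other. The ratio of Itga4 to Itgb1 reads was 3.54 and 2.81 in KO and 4.36 and 3.33 in WT, which overlap, with a difference of -0.30 on the log2 scale in replicate 1 and -0.24 in replicate 2. The ratio of Itga4 to Itgb7 reads was 1.12 and 0.895 in KO and 1.08 and 0.824 in WT, which also overlap.

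**Figure D2:**
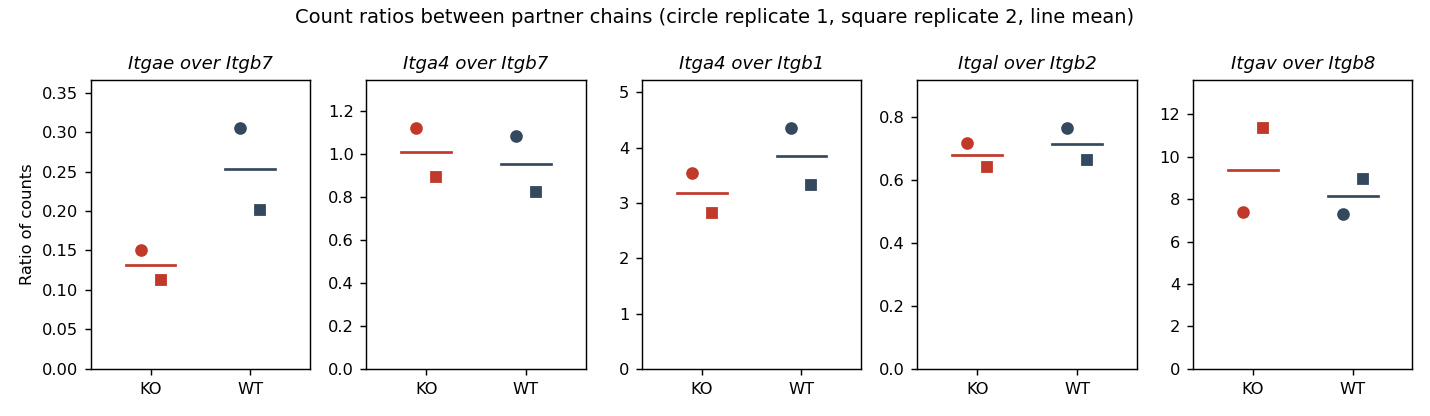
Ratio of read counts between chains that form a heterodimer (vertical axis, from 0, no unit, scaled per panel) in KO and WT libraries, with a circle for replicate 1, a square for replicate 2 and a line at the mean of n = 2. Among the 5 ratios, the KO and WT libraries were separate for Itgae over Itgb7 (0.151 and 0.113 in KO, 0.305 and 0.201 in WT) and overlapped for the other 4.

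The chains of LFA-1, which binds ICAM adhesion molecules on antigen-presenting cells and endothelium, were both slightly higher in KO without passing a test. Itgal, the alpha L chain (chromosome 7, 134439774 to 134478651), stood at 390.1 and 378 CPM in KO and 356 and 349 CPM in WT. It varied little between replicates and the genotypes did not overlap, with a log2 fold change of 0.12 ± 0.08 (95% interval -0.081 to 0.33). Itgb2, the beta 2 chain that all leukocyte integrins of this class share (chromosome 10, 76992997 to 77028431), stood at 543 and 588 CPM in KO and 464 and 524 CPM in WT. Its libraries did not overlap either, and its log2 fold change was 0.19 ± 0.10 (95% interval -0.062 to 0.45). The ratio of Itgal to Itgb2 reads overlapped, at 0.719 and 0.642 in KO and 0.766 and 0.666 in WT.

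The alpha V chain pairs with beta 8 to release active TGF-beta from its latent complex, a step by which Treg cells restrain inflammation, and with beta 3 to bind vitronectin and other matrix proteins. Itgav (chromosome 2, 83564554 to 83647073) stood at 585 and 725 CPM in KO and 654 and 626 CPM in WT. The KO libraries lay on either side of the WT libraries, and Itgav was the single chain whose direction differed between replicates, at -0.16 in replicate 1 and 0.21 in replicate 2. Its log2 fold change was 0.034 ± 0.13 (95% interval -0.28 to 0.35).

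Itgb8 (chromosome 12, 120396495 to 120477275) stood at 79.1 and 63.8 CPM in KO and 89.3 and 70.0 CPM in WT. The genotypes overlapped, and in both replicate 2 was the lower library. The fit put it at a log2 fold change of -0.16 ± 0.17 (95% interval -0.58 to 0.27), with ratios of -0.17 (replicate 1) and -0.13 (replicate 2), the widest interval among the 10 chains. Itgav over Itgb8 reads gave 7.39 and 11.4 in KO and 7.32 and 8.94 in WT, which overlap.

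Itgb3 (chromosome 11, 104469370 to 104531790) stood at 155 and 146 CPM in KO and 128 and 131 CPM in WT. Its KO libraries lay above the WT libraries, with a log2 fold change of 0.22 ± 0.09 (95% interval 0.0039 to 0.44), an unadjusted p of 0.0472 and an adjusted p of 1.00 by edgeR. Beta 3 is also a chain of the platelet receptor, and the 6 platelet and megakaryocyte markers summed to 5.23 and 5.95 CPM in KO and 6.25 and 5.82 CPM in WT, which overlap. Their part in the Itgb3 value was not tested. Itga6, the alpha 6 chain of laminin receptors (chromosome 2, 71624997 to 71694828), stood at 117 and 119.5 CPM in KO and 129.5 and 135 CPM in WT. Besides Itgae it was the other chain with both KO libraries below both WT libraries, with a log2 fold change of -0.16 ± 0.09 (95% interval -0.37 to 0.052).

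**Figure D3:**
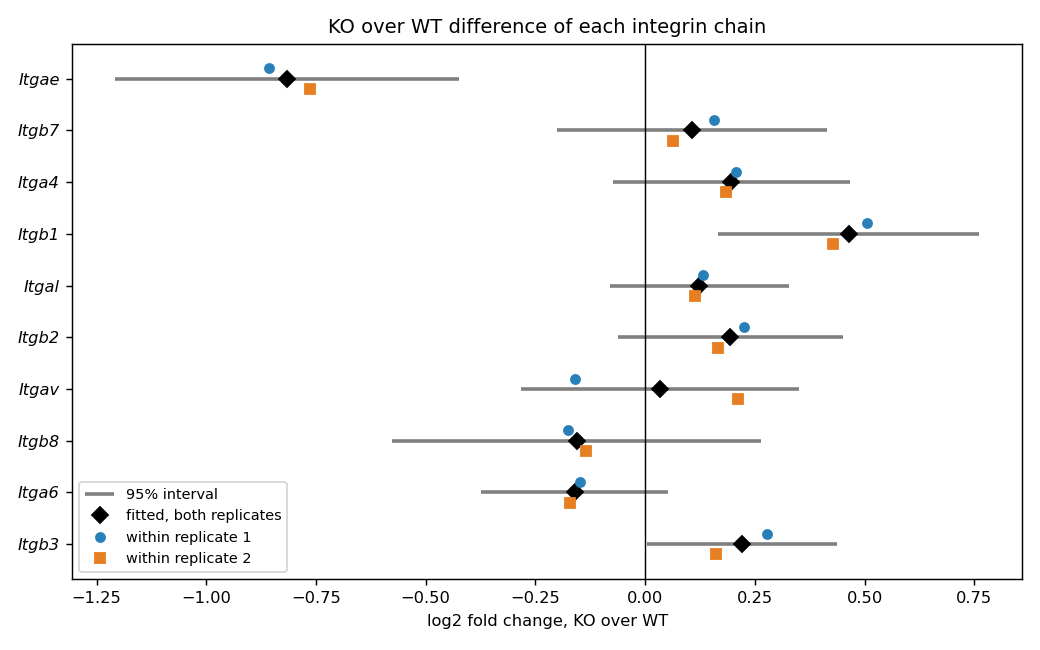
Log2 fold change of KO over WT (horizontal axis) for each integrin chain, with a diamond for the edgeR fit, a bar for its 95% interval, a circle for the ratio within replicate 1 and a square for that within replicate 2. The intervals of Itgae, Itgb1 and Itgb3 lie on 1 side of 0, before any adjustment over all genes, and the replicate ratios of Itgav lie on either side.

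Among the 10 chains, 6 were higher and 3 lower within both replicate numbers, where 29.6% of tested genes were higher and 27.1% lower in both. The difference of replicate 2 from replicate 1 had the same sign in KO and in WT for 8 of the 10 chains, the exceptions being Itgav and Itgb3. For Itgb8 it was -0.31 in KO and -0.35 in WT. For 9 chains the 95% interval of the fold change stayed within a log2 unit of 0, the exception being Itgae.

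The other integrin chains of the mouse were mostly of low level and none passed. The list of 18 also holds Itgbl1, an integrin-like gene that does not encode a chain. Of the 18 listed, 17 were in the table and 15 were tested. By edgeR 0 of these 15 passed, and DESeq2 called 0. By edgeR 0 had an unadjusted p under 0.05, against 1.64% of tested genes higher and 1.21% lower. By fitted sign 3 were higher and 12 lower, where 52.0% of tested genes were higher. Their median log2 fold change was -0.058 (within the replicate numbers, -0.21 and -0.041). Both KO libraries lay below both WT libraries for 3 of them and above for 0, beside 13.4% and 13.5% of all tested genes. Those 3 were Itgb4, the epithelial partner of alpha 6, at 0.978 and 0.870 CPM in KO and 1.79 and 1.40 CPM in WT, the leukocyte chain Itgad at 1.40 and 1.68 CPM in KO and 1.82 and 2.62 CPM in WT, and the fibronectin receptor chain Itga5 at 4.92 and 5.13 CPM in KO and 6.29 and 5.86 CPM in WT. The fourth gene by p was the laminin receptor chain Itga7, with a log2 fold change of -0.37 ± 0.27. The values of Itgb4 and Itgad rest on 30 to 167 reads a library.

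Of 36 ligand genes in the table, 34 were tested, 24 were higher and 10 lower by their fitted sign, and none passed edgeR or DESeq2 at an adjusted p of 0.05. By fitted sign, 52.0% of all tested genes were higher. At an unadjusted p under 0.05, 2 ligand genes were higher and 1 lower by edgeR, beside 1.64% and 1.21% of all tested genes. Their median log2 fold change was 0.14, but -0.027 within replicate 1 and 0.15 within replicate 2, with a range of fitted values from -1.04 to 1.85. The list holds collagen genes that are also stromal markers. The 7 stromal markers summed to 9.49 and 71.4 CPM in KO and 11.4 and 61.3 CPM in WT, which overlap and were higher in replicate 2 of each genotype. The part of stromal cells in the ligand values was not tested. Spp1, which encodes osteopontin, a secreted ligand of alpha V and alpha 4 integrins, stood at 3.58 and 2.31 CPM in KO and 0.707 and 0.895 CPM in WT, a log2 fold change of 1.85 ± 0.38 (edgeR adjusted p = 1.00). Lrrc33, which holds latent TGF-beta on myeloid cells, had 0.25 ± 0.08 and the thrombospondin receptor gene Cd47 had 0.20 ± 0.08. Thbs1, which encodes thrombospondin, had -0.86 ± 0.34, with ratios of -1.44 (replicate 1) and -0.17 (replicate 2).

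Some counter-receptors were picked for their role after values were seen. Cdh1, the gene of the CD103 ligand E-cadherin, was at 0.847 and 1.51 CPM in KO and 0.261 and 0.628 CPM in WT, with a log2 fold change of 1.36 ± 0.60. The 10 epithelial markers, of which Cdh1 is one, summed to 28.3 and 40.9 CPM in KO and 27.8 and 28.4 CPM in WT, so the sums lay close in replicate 1. Of 9 tested, both KO libraries lay above both WT libraries for 6 and below for 2, beside 13.5% and 13.4% of all tested genes. Krt8, an epithelial keratin gene, stood at 1.00 and 3.82 CPM in KO and 0 and 0.128 CPM in WT. DESeq2 called Krt8 higher (log2 fold change 5.01, adjusted p = 8.00e-04), against 0.167% of the genes with an adjusted p. By edgeR with no filter on low counts, Krt8 (adjusted p = 0.00146) and the keratin gene Krt19 (adjusted p = 0.0309) were called higher. The 2 lower in KO were the adhesion molecule gene Epcam, at 12.1 and 13.6 CPM in KO and 14.7 and 14.8 CPM in WT, and the keratin gene Krt18, at 1.42 and 1.52 CPM in KO and 2.01 and 2.31 CPM in WT. Their part in the Cdh1 value was not tested. Lrrc32, the Treg surface protein GARP that presents latent TGF-beta to the alpha V integrins, had a log2 fold change of 0.013 ± 0.10, and the cytokine gene Tgfb1 had -0.053 ± 0.20. Icam1 had 0.066 ± 0.08. Madcam1, the gene of the ligand MAdCAM-1, was the lowest of the tested ligand genes, with a log2 fold change of -1.04. It stood at 0.0968 and 0.337 CPM in KO and 0.149 and 0.769 CPM in WT, which overlap at a very low level.

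No gene of integrin activation and signalling passed a test without a replicate block. Of 53 genes found, 52 were tested, with 28 higher and 24 lower by their fitted sign, a median log2 fold change of 0.011, a range of -0.34 to 1.36 and none past edgeR or DESeq2. The highest was Pcsk5, a proprotein convertase gene, at 1.36 ± 1.25 from 6 and 45 reads in KO and 0 and 23 reads in WT, which overlap (named after its value was seen). By fitted sign, 52.0% of all tested genes were higher. At an unadjusted p under 0.05, 1 activation gene was higher and 1 lower by edgeR, beside 1.64% and 1.21% of all tested genes. Both KO libraries lay above both WT libraries for 8 and below for 3, beside 13.5% and 13.4% of all tested genes. Tln1, which encodes talin, the protein that switches integrins to their binding state, had -0.063 ± 0.17, and Fermt3, its blood cell partner kindlin-3, had 0.016 ± 0.15. Both were picked for their role. By lowest p, the actin cross-linker gene Actn1 had -0.32 ± 0.10, the tetraspanin gene Cd82 had 0.24 ± 0.08, the filamin gene Flna had 0.20 ± 0.11 and Rap1a, a small GTPase of integrin activation, had 0.15 ± 0.10. Actn1 stood at 46.3 and 45.5 CPM in KO and 58.2 and 56.2 CPM in WT, and Cd82 at 410.3 and 412 CPM in KO and 341 and 354 CPM in WT, without overlap in either.

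TGF-beta signalling and its Smad proteins induce Itgae in T cells. A list of 20 genes tied to this step also held Runx factors, transcription factors of tissue residency and Ahr itself. It also held Tbx21, whose product restrains CD103 in CD8 memory T cells, so its counts and median do not measure induction. All 20 were tested. By fitted sign 14 were higher and 6 lower, where 52.0% of tested genes were higher. The median log2 fold change was 0.024. None passed edgeR, and DESeq2 called 1 gene, Tbx21, higher, against 0.167% of the genes with an adjusted p. With an unadjusted p under 0.05 by edgeR, 1 was higher and 1 lower, against 1.64% and 1.21% of tested genes. Tgfbr1, the type I TGF-beta receptor, stood at 170.2 and 154 CPM in KO and 192 and 203 CPM in WT, a log2 fold change of -0.29 ± 0.09 with ratios of -0.17 (replicate 1) and -0.40 (replicate 2) (edgeR unadjusted p = 0.0266, adjusted p = 1.00). Smad3 had 0.25 ± 0.11 and Prdm1, which encodes Blimp-1, had 0.19 ± 0.11. Tbx21, which encodes T-bet, a regulator that restrains CD103 in CD8 memory T cells of mice, stood at 41.3 and 58.4 CPM in KO and 23.0 and 30.7 CPM in WT, a log2 fold change of 0.89 ± 0.22. Its DESeq2 adjusted p was 0.0337, but 1.00 without KO replicate 2 and 1.00 without WT replicate 1, and over the 18 alternatives it ran from 3.50e-09 to 1.00. The authors' deposited table gives 0.0135.

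**Figure D4:**
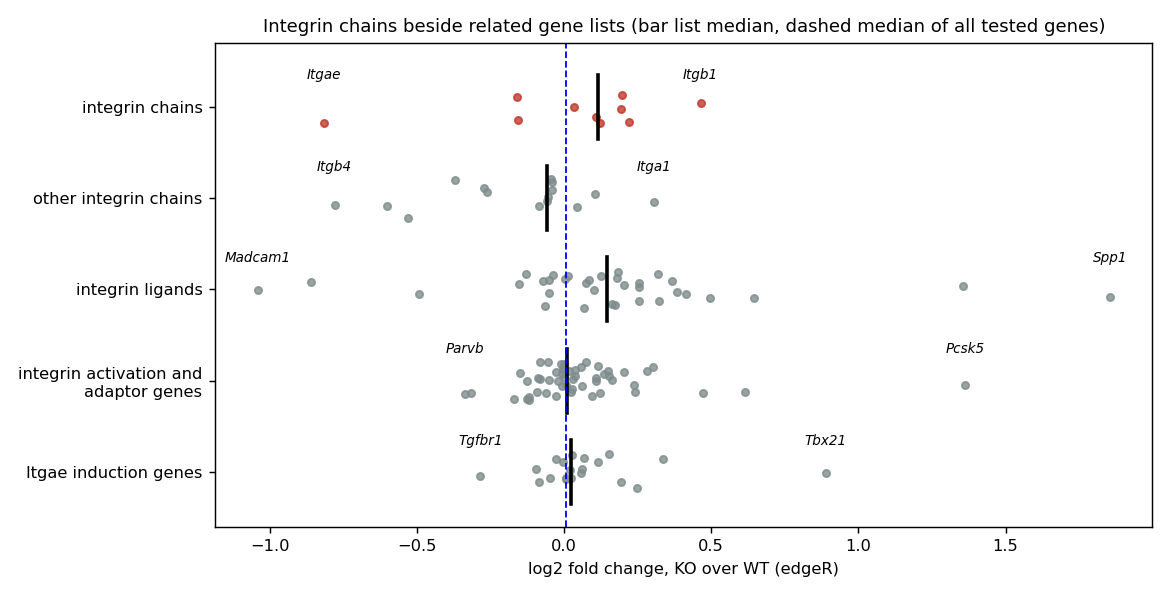
Log2 fold change of KO over WT by edgeR (horizontal axis) for each tested gene of the 10 integrin chains and of 4 related lists, a point per gene with random vertical spread, a bar at each list's median and a dashed line at the median of all tested genes (0.0074). The lowest and highest gene of each list are named, and Itgae at -0.82 is the lowest of the 10 chains, near Itgb4 at -0.78 among the other chains of the mouse.

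The tested genes nearest in pattern to Itgae were found by the Euclidean distance of centred log2 CPM over the 4 libraries, among genes whose mean log2 CPM was 1 or more. They were the transcription factor gene Hic1 at a distance of 0.152, the sugar transporter gene Slc2a6 at 0.188 and the autophagy receptor gene Optn at 0.194. Hic1 lies on the same chromosome as Itgae (chromosome 11, 74978067 to 74983021) and stood at 36.7 and 34.1 CPM in KO and 66.4 and 57.7 CPM in WT. Nearest to Itgb1 were Entpd1, the ectonucleotidase CD39, at a distance of 0.0573, the protease gene Ctsd at 0.0644 and the cytokine gene Tnfsf11, which encodes RANKL, at 0.0671. Over 4 libraries such closeness is a description of these samples.

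**Figure D5:**
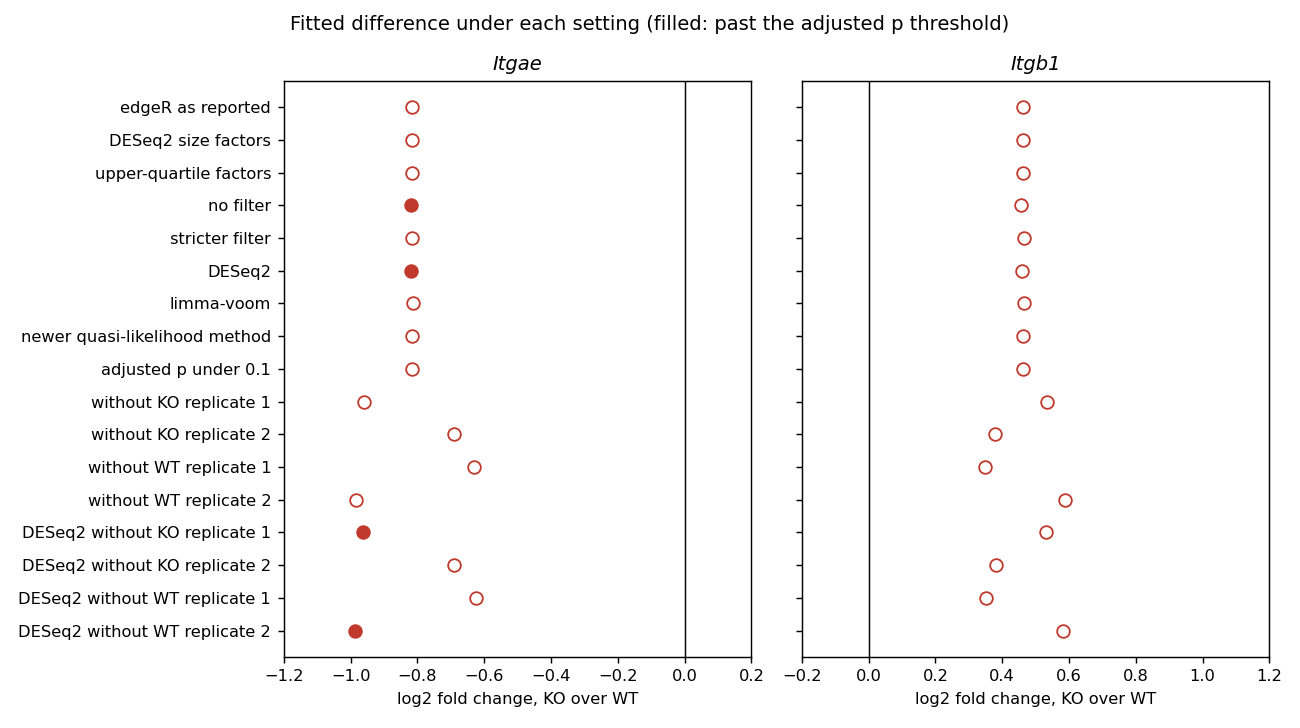
Fitted log2 fold change of KO over WT (horizontal axis) for Itgae and Itgb1 under the edgeR test as reported and under alternative scalings, filters, tests and sets of libraries (rows), with filled points past the adjusted p threshold of that setting. Itgae stayed below 0 and Itgb1 above 0 in every row shown, Itgae passed in 4 of these rows and Itgb1 in 0. The 2 fits with the replicate number as a block, in which both chains passed, are not drawn.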

How the data were processed

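The values were the raw counts per gene that the authors deposited, whole numbers that were not normalized, with gene positions on build mm9. The same deposited table gives an adjusted p-value per gene, read here as that of KO against WT, which the header does not state. TopHat2, DESeq and mm9 are named, with no version, per the submitters' processing notes. How reads were counted, on which annotation and whether by strand is not given in the sources used here. Per the labels, ribosomal RNA was removed and 50 bp single-end reads were made. The ATAC-seq samples (4) were not used here.

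The 4 RNA-seq libraries were grouped by genotype. Of 19191 rows, 14274 passed edgeR's filterByExpr filter. The main test was the quasi-likelihood F-test of edgeR 4.0.16 in R 4.3.3, two-sided, with TMM scaling and genotype as the only term. CPM used the TMM-scaled total over tested genes, except sums over markers and single marker genes, which used the total over all genes. Ratios within a replicate used a prior count of 2. The SE was the log2 fold change divided by the root of F, and 95% intervals used the moderated degrees of freedom. DESeq2 1.42.0 and limma 3.58.1 were alternatives, together with other scalings, filters, the replicate number as a block and leaving out each library. The scripts were tested on simulated data. A floor of 3 counts, or 0.0481 to 0.112 CPM, is what a count of 0 allows, and covers counting error only.

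The members and lists were chosen with earlier results of these data known. Genes were named by a rule: all 10 chains, up to 4 genes of lowest p per list, genes overlapping a chain, the neighbours of Itgae and the 3 genes nearest in pattern to Itgae and Itgb1. Of 217 list entries 214 were found. DESeq2 without each library was added after seeing the data.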

Additional observations from a re-analysis of the deposited data

How the results depend on the processing

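The edgeR test called 0 genes, and with no filter on low counts it called 52, DESeq2 called 48, and without a library edgeR called 0 to 2 and DESeq2 7, 14, 22 or 29. Itgae alone among the 10 chains was called with no filter (1 chain, adjusted p = 0.00295) and by DESeq2 (1), and without a library 0 by edgeR and 0 to 1 by DESeq2. Among the genes tied to Itgae induction, Tbx21 was the 1 call with no filter and the 1 call by DESeq2, and 0 to 1 without a library. The cause of these changes was not tested. Other scalings, the stricter filter, limma-voom, the newer quasi-likelihood method and an adjusted p under 0.1 called no chain and no gene of the related lists.

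Replicate numbers are not stated to mark a shared animal or day, but deviations of same-numbered libraries correlated at 0.641 across tested genes. A replicate block in the edgeR fit gave 458 called genes, 275 higher (1.93% of tested genes) and 183 lower (1.28%), and in DESeq2 139. Of the 10 chains, 2 were called by each, Itgae lower (adjusted p = 1.29e-10 by edgeR, 3.13e-17 by DESeq2) and Itgb1 higher (5.10e-06 and 2.77e-06). The block also called 3 ligand genes (Spp1, Lrrc33 and Thbs1), 2 activation genes (Actn1 and Cd82) and 3 genes of the Itgae induction list (Tbx21, Smad3 and Tgfbr1) in edgeR. In DESeq2 it called 1 gene of these lists (Tbx21). Of the cell type markers, the edgeR block fit called Emr1, Csf1r, C1qa, C1qb and Gzma lower. It called Krt8, Krt19, Lgals4, Igj and Ctla4 higher. The DESeq2 block fit called C1qa and Gzma lower and Krt8 and Ctla4 higher. Without a block, DESeq2 called Krt8 higher, and edgeR with no filter called Krt8 and Krt19 higher and Gzma lower. The part of these markers in the chain values was not tested. The edgeR block fit leaves 1 residual degree of freedom.

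Signs turned only where a library was left out, for values near 0. Over the fits without a library, Itgb7 ran from -0.015 by edgeR and -0.011 by DESeq2 (both without WT replicate 1) to 0.24, and Itgav from -0.13 by edgeR and -0.13 by DESeq2 (without KO replicate 2), by way of -0.0040 by DESeq2 without WT replicate 2, to 0.17. Itgb8 ran from -0.33 to 0.027 by edgeR and 0.031 by DESeq2 (both without WT replicate 1). Cerkl ran from -0.24 (without KO replicate 1), -0.097 and -0.10 (without WT replicate 2) to 0.36, and 1200014J11Rik from -0.12 to 0.020 and 0.026 (without WT replicate 2). The other 7 chains kept their sign under all 18 alternatives. With 2 libraries a genotype, the 95% intervals of the chains reach 0.20 to 0.42 log2 units to either side.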
